A study of Homo sapiens with 12 samples.

Results

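The neuronal cytoskeleton and adhesion genes described here were 9 genes chosen by name, MAP2, MAP1B, TUBB3, DCX, STMN2, NES, NEFM, NCAM1 and NRCAM, out of 58575 genes listed in the count data, with or without reads. They were followed by RNA-Seq in 12 libraries of 201B7, an established human iPSC line grown in StemFit medium, with 3 libraries for each of 4 conditions harvested on Day 5. Cond 1 was the untreated control, Cond 2 (the low nutrient condition) received StemFit that had been kept at 56 °C for 30 min, Cond 3 (the differentiation condition) received a DMEM-based medium containing 10% FBS, MEM NEAA and GlutaMax, and Cond 4 (the physical stimulus) was pipetted 20 times at passaging and then grown like the control. By the paper's account, the heat-treated medium of Cond 2 was given earlier than the FBS medium of Cond 3. Differences between Cond 2 and Cond 3 therefore cannot be told apart from time in the medium. All groups are the same line, and no condition was a directed neural differentiation. The design text describes 3 plates with a well for each condition, and the paper's methods describe 3 runs of the whole arrangement. Its results section, however, calls the replicates technical. The p-values thus measure only the spread between these libraries, which may be technical.

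Microtubules, neurofilaments and adhesion molecules give a neuron its shape. Tubulin dimers polymerize into microtubules, proteins such as MAP2, MAP1B and DCX bind and stabilize these polymers, and stathmins such as STMN2 bind free tubulin and favour disassembly. Intermediate filaments (NES in progenitors, NEFM in neurons) fill the processes, while NCAM1 and NRCAM are immunoglobulin-type adhesion molecules of the cell surface that guide axons and hold contacts. Several of these genes, TUBB3, DCX and MAP2 among them, are stained as markers of young neurons, whereas NES is also active in pluripotent cells and neural progenitors.

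Differences were tested with edgeR in 17747 genes that had enough counts, and all 9 genes were among them. A gene was called at a Benjamini-Hochberg adjusted p-value under 0.05, and DEGs also had a fold change above 2. In Cond 3, 8 of the 9 genes rose and MAP1B fell slightly, against a background of 19.5% of all tested genes called higher and 18.8% called lower. In Cond 2, 4 genes rose (STMN2, MAP2, MAP1B and NRCAM) and 2 fell (DCX and NEFM), against 10.8% of all genes called higher and 10.1% called lower. In Cond 4, 0 of the 9 genes were called, against 0.0282% of all genes. These comparisons share the Cond 1 libraries, so each is given with its own values. The 9 genes were chosen with earlier results of these data known. Their counts beside the background shares are therefore descriptions and not a test of enrichment. In RNA from whole cultures, a change in the number of cells that express a gene and a change in RNA per cell cannot be told apart.

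**Figure D1:**
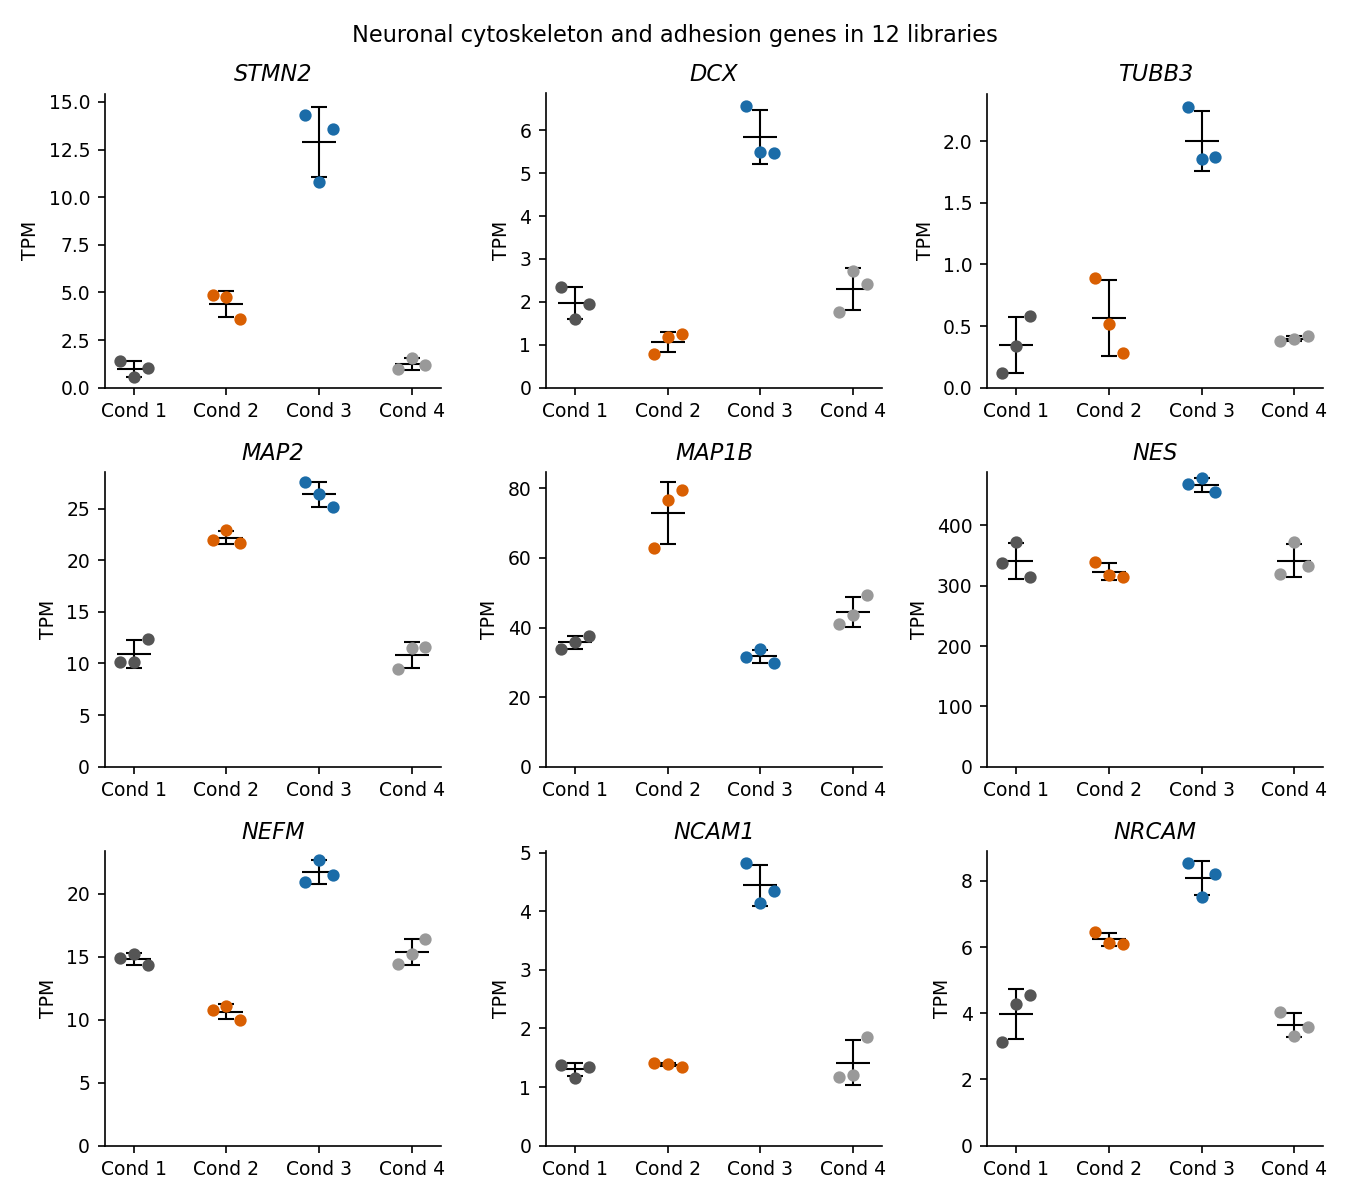
Each panel plots the TPM (a level scaled for gene length and sequencing depth) of 1 gene on a linear axis from 0, with 1 point per library, a horizontal line at the mean and bars of 1 SD (n = 3). In Cond 3 the points of 8 genes lie above all Cond 1 points (against 26.6% of all tested genes), while MAP1B is highest in Cond 2.

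Totals per library lay between 16441148 and 21871503 counts, and libraries of 1 condition differed by more than sampling noise. As a check of the labelled cell type iPS, 12 primed pluripotency genes were examined. All had a mean of at least 1 TPM in every condition, but several differed from the control. POU5F1, the gene of the pluripotency factor OCT4, was not among the 12, so the check does not cover it. The paper reports lower expression of that gene in the low nutrient condition and unchanged expression in the differentiation condition. NANOG, a core pluripotency factor, fell from 45.9 ± 1.93 TPM in Cond 1 to 22.9 ± 2.37 in Cond 2 (log2 fold change -1.09, adjusted p = 6.43e-10) and 10.5 ± 0.759 in Cond 3 (-2.16, adjusted p = 1.40e-14). The NODAL co-receptor gene TDGF1 fell in both media (log2 fold change -1.50 and -0.94), and FOXD3 (-2.08) and DPPA2 (-1.77) fell in Cond 2. The summed level of the 12 genes, to which LIN28A and DNMT3B contributed most, was 6866 to 7275 TPM in Cond 1, 6100 to 6864 in Cond 2, 7052 to 7534 in Cond 3 and 6976 to 7294 in Cond 4.

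In the control cells these genes covered a wide range of levels. NES was at 341 ± 29.2 TPM (SD, n = 3), above 98.1% of the 21123 genes that had reads in every Cond 1 library. MAP1B followed at 35.7 ± 1.92 TPM, NEFM at 14.8 ± 0.456 and MAP2 at 10.9 ± 1.35. NRCAM at 3.98 ± 0.759 TPM, DCX at 1.97 ± 0.375 and NCAM1 at 1.30 ± 0.118 were low. STMN2 at 0.978 ± 0.424 TPM and TUBB3 at 0.345 ± 0.228 TPM were lowest, TUBB3 above 7.18% of those genes. The library ranges of NCAM1 and STMN2 overlapped, as did those of STMN2 and TUBB3, and the other neighbours in this order did not overlap. In Cond 3 the order was NES, MAP1B, MAP2, NEFM, STMN2, NRCAM, DCX, NCAM1 and TUBB3, with no overlap between neighbours. In Cond 2 it was NES, MAP1B, MAP2, NEFM, NRCAM, STMN2, NCAM1, DCX and TUBB3, and there DCX and TUBB3 overlapped.

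The sequence in front of the annotated start was available in RefSeq (GRCh38.p14) for 6 of the 9 genes, namely MAP2, MAP1B, TUBB3, DCX, NES and NRCAM. RefSeq gives several starts for some genes, among them 3 for NRCAM and 2 for TUBB3, and for these a single region, the one with the most G and C, was picked after the values were seen. It is shown for 3 genes that rose in Cond 3 and differ widely in level, the highest member (NES), the lowest (TUBB3) and an adhesion gene (NRCAM), 5′ to 3′ on the gene's own strand and without any exon bases. Capitals mark the GC box, GGGCGG or its reverse complement CCGCCC. The NES region is chr1:156677408-156677657 on the reverse strand, the TUBB3 region chr16:89923092-89923337 on the forward strand and the NRCAM region chr7:108456437-108456669 on the reverse strand.
NES: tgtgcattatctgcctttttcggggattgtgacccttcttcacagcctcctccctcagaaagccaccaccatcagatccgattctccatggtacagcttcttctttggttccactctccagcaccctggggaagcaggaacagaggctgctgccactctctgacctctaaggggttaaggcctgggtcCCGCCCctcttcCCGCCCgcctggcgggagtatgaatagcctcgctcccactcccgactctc
TUBB3: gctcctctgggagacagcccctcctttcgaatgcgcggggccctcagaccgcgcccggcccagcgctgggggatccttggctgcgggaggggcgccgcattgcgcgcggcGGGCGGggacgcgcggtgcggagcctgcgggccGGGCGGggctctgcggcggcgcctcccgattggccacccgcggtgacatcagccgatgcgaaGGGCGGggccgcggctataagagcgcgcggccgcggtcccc
NRCAM: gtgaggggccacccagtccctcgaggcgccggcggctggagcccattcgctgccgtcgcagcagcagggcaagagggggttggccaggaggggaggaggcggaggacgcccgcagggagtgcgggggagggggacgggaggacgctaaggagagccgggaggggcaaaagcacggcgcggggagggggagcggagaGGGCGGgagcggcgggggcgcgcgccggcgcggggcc
The box occurred 2 times in the NES region, 3 times in the TUBB3 region and 1 time in the NRCAM region. On either strand it was present in 42.6% of all 35116 start regions of 250 bases, so its presence is common. The windows of TUBB3 and NRCAM had 78% and 78.4% G or C and that of NES 58%, which equals the median of 58% over all start regions. None of the 3 regions shown held the E-box CAGCTG (found in 14% of start regions), the TATA motif TATAAA (10.7%) or the SOX motif ACAATG (9.29%), each searched on both strands. The other NRCAM and TUBB3 regions differed from those shown. The NRCAM region chr7:108243386-108243635 had 33.2% G or C, no GC box and 2 matches of the SOX motif. The remaining NRCAM region had 42.4% G or C and the other TUBB3 region 65.6%, each over 250 bases. Motifs were searched there only in the longest stretch without exon bases, of 121 and 176 bases, and none of the 4 was found. A match describes the letters only and is no evidence of binding.

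STMN2 (ENSG00000104435, chr8:79611117-79666158, forward strand, GRCh38), the stathmin of growing axons, had the largest fold change of the 9 genes in both altered media. Its level was 1.38, 0.538 and 1.01 TPM in Cond 1, 4.86, 4.74 and 3.60 in Cond 2, 14.3, 10.8 and 13.6 in Cond 3 and 0.984, 1.57 and 1.17 in Cond 4. The Cond 3 libraries were above all others, the Cond 2 libraries lay between, and Cond 1 and Cond 4 overlapped. STMN2 rose 12.6-fold in Cond 3 (log2 fold change 3.66, standard error 0.313, adjusted p = 1.96e-09) and 4.16-fold in Cond 2 (log2 fold change 2.06, standard error 0.325, adjusted p = 3.19e-05). These folds rest on 6 to 18 reads per library in Cond 1, against 41 to 64 in Cond 2 and 140 to 207 in Cond 3. The increase in Cond 3 also exceeded that in Cond 2, by 3.04-fold (adjusted p = 2.34e-05).

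DCX (ENSG00000077279, chrX:111293779-111412429, reverse strand), doublecortin, binds microtubules in migrating young neurons. It measured 2.35, 1.6 and 1.96 TPM in Cond 1, 0.795, 1.17 and 1.24 in Cond 2, 6.57, 5.50 and 5.48 in Cond 3 and 1.76, 2.73 and 2.41 in Cond 4. Cond 2 lay below and Cond 3 above every control library, with no overlap in either direction. DCX rose 2.91-fold in Cond 3 (log2 fold change 1.54, standard error 0.184, adjusted p = 6.71e-07). In Cond 2 it was 1.96-fold lower (log2 fold change -0.97, standard error 0.209, adjusted p = 0.00134), just short of the fold needed for a DEG. With limma on log2(TPM + 1) and log2(TPM + 0.1) over all genes above 0, the decrease in Cond 2 had an adjusted p of 0.055 and 0.0701 and was not called. Between the altered media DCX differed 5.71-fold (adjusted p = 1.16e-09), the widest difference of the 9 genes.

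MAP2 (ENSG00000078018, chr2:209424047-209734147, forward strand), a microtubule-associated protein of dendrites, was higher in both altered media. It measured 10.1, 10.1 and 12.4 TPM in Cond 1, 22, 22.9 and 21.7 in Cond 2, 27.6, 26.4 and 25.2 in Cond 3 and 9.42, 11.5 and 11.6 in Cond 4. The 3 levels of Cond 1, Cond 2 and Cond 3 were separated without overlap. MAP2 rose 2.37-fold in Cond 3 (log2 fold change 1.25, standard error 0.0906, adjusted p = 3.37e-10) and 1.92-fold in Cond 2 (log2 fold change 0.94, standard error 0.0913, adjusted p = 6.00e-08). The step from Cond 2 to Cond 3 was small, at 0.31 on the log2 scale (standard error 0.0877, adjusted p = 0.00776). It was not called in any of the 3 limma fits on TPM, with adjusted p between 0.0694 and 0.26.

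MAP1B (ENSG00000131711, chr5:72107234-72209565, forward strand), a microtubule-associated protein of growing axons, was highest in Cond 2. It measured 33.8, 35.8 and 37.6 TPM in Cond 1, 62.8, 76.7 and 79.6 in Cond 2, 31.6, 33.7 and 29.8 in Cond 3 and 40.9, 43.5 and 49.3 in Cond 4. All Cond 2 libraries were above those of the other conditions. MAP1B rose 1.92-fold in Cond 2 (log2 fold change 0.94, standard error 0.0762, adjusted p = 3.46e-09) and was 2.21-fold lower in Cond 3 than in Cond 2 (adjusted p = 7.97e-11). The decrease of Cond 3 against Cond 1 was slight, at -0.20 on the log2 scale (standard error 0.0775, adjusted p = 0.0424), and the highest Cond 3 library nearly reached the lowest control. This decrease was no longer called with upper-quartile normalization (adjusted p = 0.0689) or in the 3 limma fits (0.212 to 0.431). Leaving out 1 library also ended it, with an adjusted p of 0.0754 without Cond 1 replicate 2, 0.184 without Cond 1 replicate 3, 0.104 without Cond 3 replicate 1 and 0.17 without Cond 3 replicate 3.

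TUBB3 (ENSG00000258947, chr16:89921392-89938761, forward strand), the beta tubulin stained as a neuronal marker, was barely counted in these cells. It had 3, 7 and 15 reads in Cond 1, 20, 13 and 6 in Cond 2, 62, 45 and 44 in Cond 3 and 8, 9 and 10 in Cond 4. In TPM these were 0.123, 0.335 and 0.578, then 0.893, 0.514 and 0.281, then 2.28, 1.86 and 1.87, and last 0.382, 0.396 and 0.417. Only the Cond 3 libraries stood apart from the controls. TUBB3 rose 5.57-fold in Cond 3 (log2 fold change 2.48, standard error 0.507, adjusted p = 3.89e-04), and without Cond 1 replicate 3, the control with most reads, the log2 fold change was 3.12. In Cond 2 the difference was 0.60 on the log2 scale with a 95% interval that included 0 (standard error 0.547, adjusted p = 0.488).

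The counting of TUBB3 limits how its level can be read. The gene AC092143.1 on the same strand joins upstream exons to those of TUBB3 and shares 1584 of the 1706 bases (92.8%) of the canonical TUBB3 transcript. AC092143.1 was listed at 0 counts in all 12 libraries. The TUBB3 transcript has exons of 117, 109, 111 and 1369 bases, and apart from the first of these nearly all of its sequence also belongs to AC092143.1. How reads on shared exons were assigned was not given in the sources used here, and the effect on the TUBB3 level was not tested. The TUBB3 values here may thus stand for only part of its transcripts.

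**Figure D2:**
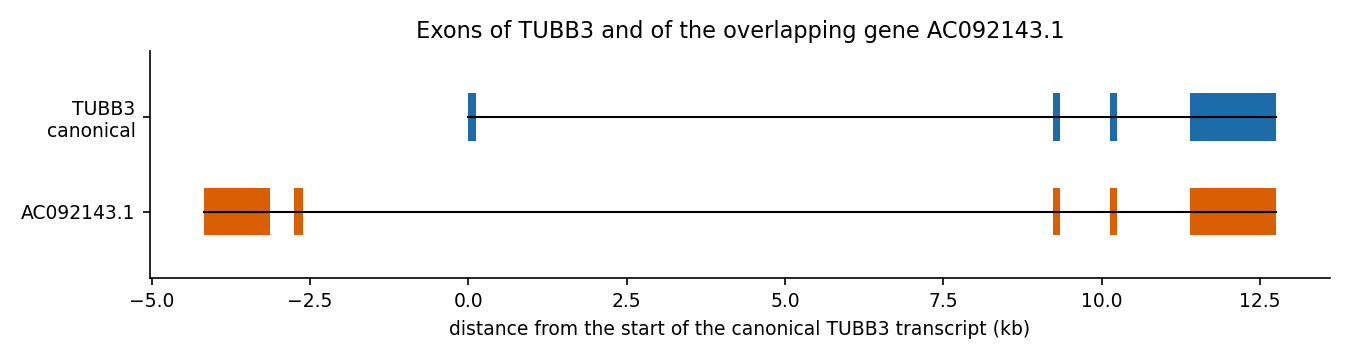
Boxes are exons of the canonical TUBB3 transcript and of AC092143.1, to scale, by distance in kb from the TUBB3 start. The last 3 boxes of both rows coincide, and the first TUBB3 box of 117 bases stands alone.

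As counted, and with the limits just given, TUBB3 was a small share of the beta tubulins. TUBB4B measured 507 ± 35.9 TPM in Cond 1 and TUBB2B 455 ± 58.5 TPM, followed by TUBB2A at 180 ± 13.4, TUBB6 at 51.7 ± 3.44 and TUBB4A at 31.8 ± 0.685 (SD, n = 3). TUBB3 made up 0.0288% ± 0.0208 of the summed beta tubulin TPM in Cond 1 and 0.0445% ± 0.0262 in Cond 2. It was 0.113% ± 0.0125 in Cond 3 and 0.0335% ± 0.00211 in Cond 4. The share in every Cond 3 library was above those of Cond 1, and the two-sided exact permutation test gave p = 0.1 for Cond 3, the smallest value that 3 against 3 libraries allow, with 0.5 for Cond 2 and 0.7 for Cond 4. On read counts in place of TPM the differences from Cond 1 were larger, at 0.172 against 0.0845 percentage points in Cond 3 (exact permutation p = 0.1) and 0.0307 against 0.0157 in Cond 2 (exact permutation p = 0.6). The difference in Cond 2 was 0.00191 without Cond 2 replicate 1 and 0.00628 without Cond 1 replicate 1, and it was 0.0279 without Cond 2 replicate 3 and 0.0268 without Cond 1 replicate 3. Of 6 beta tubulins tested, 5 rose in Cond 3, or 4 of 5 without TUBB3, where 19.5% of all tested genes were called higher and 18.8% lower. Besides TUBB3, TUBB4A rose by 1.03 on the log2 scale (adjusted p = 5.82e-09), TUBB2B by 0.65 (5.59e-08), TUBB4B by 0.50 (3.24e-07) and TUBB6 by 0.46 (1.22e-04). In Cond 2, TUBB6 rose by 0.47 (adjusted p = 1.81e-04) and TUBB2A was lower, at -0.43 (adjusted p = 0.00103), where 10.8% of all tested genes were called higher and 10.1% lower. TUBB2A and TUBB2B share many sequence stretches (33.7% of the 31-base words of TUBB2A occur in TUBB2B and 23.8% of those of TUBB2B in TUBB2A), and the split of reads between them is uncertain. TUBB itself was listed at 0 in all Cond 1 and Cond 2 libraries and at most 0.115 TPM elsewhere, and 95.4% of its 31-base words also occur on alternate haplotype sequences of the assembly, so its level and any share that includes it are uncertain.

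NES (ENSG00000132688, chr1:156668763-156677407, reverse strand) encodes nestin, the intermediate filament protein of progenitor cells. It measured 338, 372 and 314 TPM in Cond 1, 339, 317 and 314 in Cond 2, 468, 479 and 456 in Cond 3 and 320, 373 and 332 in Cond 4. Cond 3 was above all other libraries, and the remaining conditions overlapped. NES rose 1.35-fold in Cond 3 (log2 fold change 0.43, standard error 0.0629, adjusted p = 1.07e-05), a small change measured on 8416 to 15971 reads per library. The difference in Cond 2 was -0.16 on the log2 scale (adjusted p = 0.0749). It crossed the threshold with upper-quartile normalization (adjusted p = 0.0499), with no filter on low counts (0.0196), without Cond 1 replicate 3 (0.0377) and without Cond 2 replicate 1 (0.0156).

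NEFM (ENSG00000104722, chr8:24913758-24919098, forward strand), the medium neurofilament subunit, moved in opposite directions in the altered media. It measured 14.9, 15.2 and 14.3 TPM in Cond 1, 10.8, 11.1 and 9.94 in Cond 2, 20.9, 22.7 and 21.5 in Cond 3 and 14.4, 15.2 and 16.4 in Cond 4. Cond 2 was below and Cond 3 above every control library. NEFM was 1.48-fold lower in Cond 2 (log2 fold change -0.56, standard error 0.112, adjusted p = 6.71e-04) and rose 1.44-fold in Cond 3 (log2 fold change 0.52, standard error 0.107, adjusted p = 4.60e-04). Between Cond 3 and Cond 2 it differed 2.12-fold (adjusted p = 5.30e-08). An antisense gene, AF106564.1, covers 26.4% of the NEFM exon bases and had 45 to 145 counts. The libraries were directional, but the strand setting of the counting was not given in the sources used here.

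NCAM1 (ENSG00000149294, chr11:112961275-113278436, forward strand), the neural cell adhesion molecule that carries polysialic acid, was called in Cond 3 and not in Cond 2 or Cond 4 against the control. It measured 1.38, 1.16 and 1.35 TPM in Cond 1, 1.41, 1.39 and 1.35 in Cond 2, 4.83, 4.14 and 4.35 in Cond 3 and 1.18, 1.21 and 1.86 in Cond 4. Cond 3 was above all other libraries, and the others overlapped. NCAM1 rose 3.34-fold in Cond 3 (log2 fold change 1.74, standard error 0.175, adjusted p = 5.25e-08), and its level there exceeded that of Cond 2 by 3.34-fold (adjusted p = 4.81e-08). For Cond 2 the 95% interval of the log2 fold change was -0.38 to 0.39.

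NRCAM (ENSG00000091129, chr7:108147623-108456717, reverse strand), an L1-family adhesion molecule anchored to the spectrin skeleton by ankyrins, was higher in both altered media. It measured 3.12, 4.27 and 4.56 TPM in Cond 1, 6.47, 6.13 and 6.11 in Cond 2, 8.55, 7.51 and 8.21 in Cond 3 and 4.05, 3.31 and 3.59 in Cond 4. The altered media did not overlap with the control or with each other. NRCAM rose 1.99-fold in Cond 3 (log2 fold change 0.99, standard error 0.141, adjusted p = 6.57e-06) and 1.47-fold in Cond 2 (log2 fold change 0.56, standard error 0.143, adjusted p = 0.00627). Without Cond 1 replicate 1, the lowest control, the change in Cond 2 was 0.40 with an adjusted p of 0.059.

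**Figure D3:**
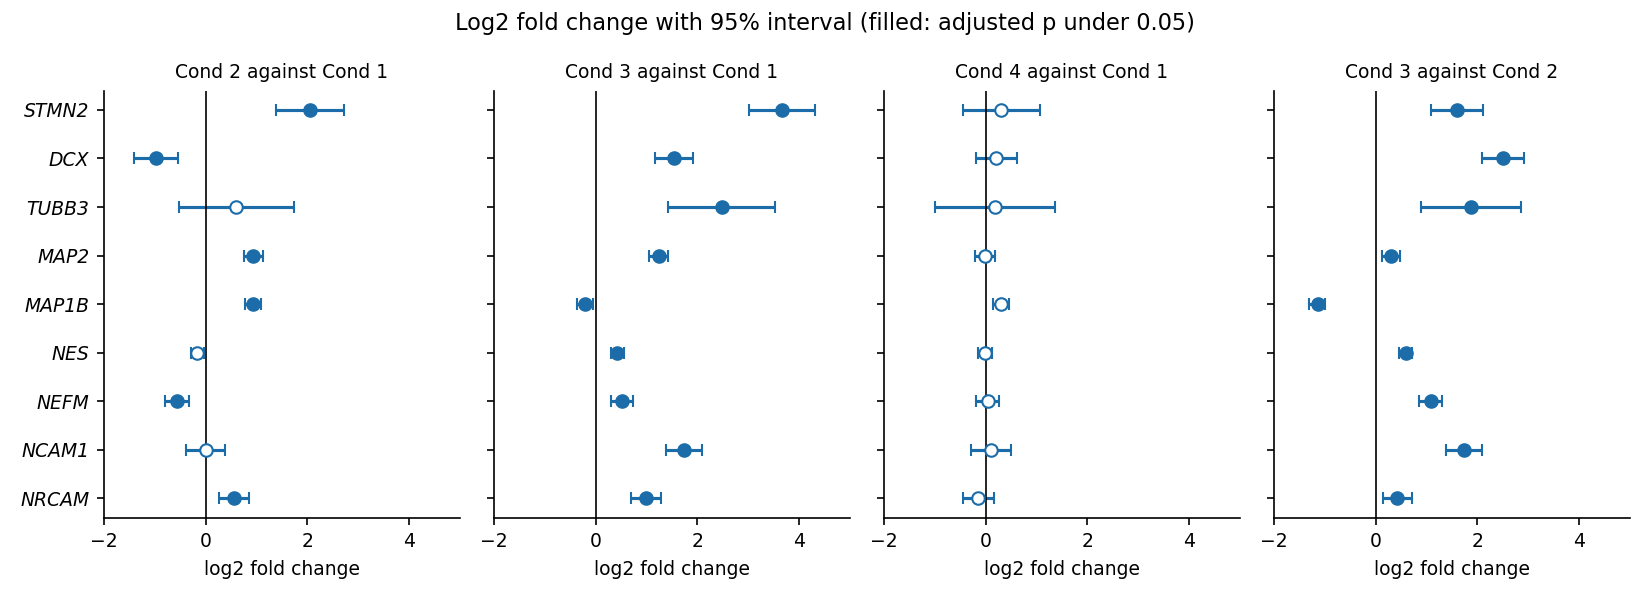
Each point is the log2 fold change of 1 gene (x axis) with its 95% interval from edgeR, in 4 comparisons, filled where the adjusted p was under 0.05. STMN2 lies farthest to the right in Cond 2 and Cond 3 against Cond 1, and in Cond 4 only MAP1B has an interval that leaves out 0.

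Taking the fold change into account, 1 of the 9 genes was a DEG in Cond 2 (STMN2), where 4.34% of all tested genes were. In Cond 3, 5 were DEGs (STMN2, TUBB3, NCAM1, DCX and MAP2), where 8.16% of all tested genes were, and all 5 were higher. NRCAM, at 1.99-fold, lay just under the limit in Cond 3, as did MAP2 and MAP1B at 1.92-fold in Cond 2. Their place under the limit depended on the fit: with limma on log2(TPM + 0.1), the log2 fold change was 1.02 for NRCAM in Cond 3 (adjusted p = 0.00284) and 1.03 for MAP2 (0.0021) and 1.02 for MAP1B (0.0022) in Cond 2, past a fold change of 2. The paper's supplement likewise lists MAP2 and MAP1B as up-regulated in Cond 2 and NRCAM in Cond 3, with the same limit on fold change. The direct comparison of Cond 3 with Cond 2 called 8 genes higher and MAP1B lower in Cond 3, against 19% and 19.2% of all tested genes called higher and lower. NRCAM was 0.43 higher on the log2 scale there (adjusted p = 0.0149), a call that was lost without Cond 2 replicate 2 (adjusted p = 0.0531) or without Cond 3 replicate 1 (0.0582), and in limma over all genes above 0 on log2(TPM + 1) (0.081) and log2(TPM + 0.1) (0.158). By fold change, 6 of the 9 genes were DEGs in this comparison (MAP1B, DCX, NEFM, STMN2, NCAM1 and TUBB3), where 8.77% of all tested genes were. NES was 1.5-fold higher (adjusted p = 1.28e-07) and TUBB3 higher by 1.87 on the log2 scale (standard error 0.475, adjusted p = 0.00308). Time in the medium also differed between Cond 2 and Cond 3, and its part was not tested.

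Pipetting in Cond 4 gave no call by edgeR among the 9 genes, with 1 gene (MAP1B) at an unadjusted p under 0.05 against 6.21% of all tested genes, and DESeq2 and limma on TPM also called 0. MAP1B was higher in all 3 Cond 4 libraries than in any control, at 44.6 ± 4.28 against 35.7 ± 1.92 TPM (log2 fold change 0.30, 95% interval 0.15 to 0.46, unadjusted p = 6.57e-04, adjusted p = 0.449 by edgeR). TPM ranges lay apart upward in 6.75% of all tested genes. With no filter on low counts edgeR called MAP1B (adjusted p = 0.00356) among 52 genes called, against 5 with the filter. For the other genes the 95% intervals of the log2 fold change included 0. They were narrow for NES (-0.14 to 0.12), MAP2 (-0.21 to 0.18) and NEFM (-0.19 to 0.27). They were wide for STMN2 (-0.45 to 1.07) and TUBB3 (-1 to 1.36), whose low counts left changes of this size undetectable.

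Related genes outside the 9 were examined as lists, by counts and medians. Over all tested genes, 10.8% were called higher and 10.1% lower in Cond 2, and 19.5% and 18.8% in Cond 3. The counts of every list are to be read against these shares. The lists too were chosen with earlier results of these data known, so their counts are no test of enrichment. Of 19 microtubule proteins of neurons tested, 10 rose and 2 fell in Cond 3 (median log2 fold change 0.46, against -0.0064 for all genes), and 11 rose and 1 fell in Cond 2 (median 0.27, against 0.00018). DPYSL5, a collapsin response mediator, rose from 8.25 ± 0.771 TPM in Cond 1 to 46.8 ± 4.68 in Cond 2 (log2 fold change 2.42, adjusted p = 4.45e-14) and 38.5 ± 3.25 in Cond 3 (2.2, adjusted p = 1.16e-13). MAP6, which stabilizes microtubules, rose in Cond 2, from 1.25 to 4.71 TPM (adjusted p = 2.01e-06). STMN3, a relative of STMN2, rose in Cond 3, from 47.7 ± 2.38 to 127 ± 5.13 TPM (log2 fold change 1.38, adjusted p = 1.01e-11), and was at 49.4 ± 5.72 TPM in Cond 2 (adjusted p = 0.833). MAP1A, a relative of MAP1B, rose by 0.91 on the log2 scale in Cond 2 (adjusted p = 0.00486) and by 1.52 in Cond 3 (9.10e-06). The tau kinase gene TTBK1 rose by 0.96 (adjusted p = 0.00603) and 1.53 (2.42e-05). MAPT, which encodes tau itself, was listed at 0 in all libraries of Cond 1, Cond 3 and Cond 4. Unlike TUBB, it was not checked for copies on alternate haplotype sequences, so this level is uncertain.

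Among 8 intermediate filament genes of neural and mesenchymal cells tested, 5 rose and 1 fell in Cond 3 (median 0.36), and 3 rose and 1 fell in Cond 2 (median -0.03). NES and NEFM are 2 of these 8 genes, and without them 3 of 6 rose in each of the conditions. VIM, vimentin, rose from 36.5 ± 4.17 TPM to 55.8 ± 10.9 in Cond 2 (adjusted p = 0.00596) and 78.0 ± 7.05 in Cond 3 (9.84e-07). INA, the internexin that assembles with neurofilaments, rose by 0.32 on the log2 scale in Cond 2 (adjusted p = 0.0165) and by 0.29 in Cond 3 (0.0174). NEFL, the light neurofilament subunit that NEFM pairs with, was lower in Cond 3, at 18.3 ± 1.51 against 24.1 ± 0.803 TPM (log2 fold change -0.43, adjusted p = 0.00229). The neurofilament subunits NEFL and NEFM thus differed in direction in Cond 3. NEFH of this list was not among the genes tested. It was at 9.12, 9.52 and 7.44 TPM in Cond 1, 5.07, 5.97 and 9 in Cond 2 and 7.55, 8.21 and 9.71 in Cond 3.

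Of 19 neural adhesion molecules tested, 10 rose and 1 fell in Cond 3 (median 0.48), and 12 rose and 4 fell in Cond 2 (median 0.40). In Cond 3 the largest changes were those of LSAMP (log2 fold change 1.45, adjusted p = 1.90e-08), ALCAM (1.11, 1.68e-11), ST8SIA2 (1.08, 0.00173) and CNTN1 (1.07, 5.20e-07) among genes with a mean of at least 1 TPM. ST8SIA2 makes the polysialic acid chains of NCAM1, and it was at 1.61, 0.905 and 1.72 TPM in Cond 1 and 3.15, 2.81 and 3.29 in Cond 3. In Cond 2, ANK2, an ankyrin that links adhesion molecules to spectrin, rose by 1.16 on the log2 scale (adjusted p = 4.68e-09) and CNTNAP2 by 1.05 (1.36e-04). L1CAM, the founding relative of NRCAM, was lower there, at 12.6, 12.6 and 15.6 TPM against 30.1, 21.8 and 27.6 in Cond 1 (log2 fold change -1.05, adjusted p = 3.41e-07). NLGN1, a synaptic adhesion gene, was lower too (-1.22, adjusted p = 5.09e-07). NRCAM and L1CAM therefore changed in opposite directions in Cond 2. CHL1 was listed at 0 in all 12 libraries.

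**Figure D4:**
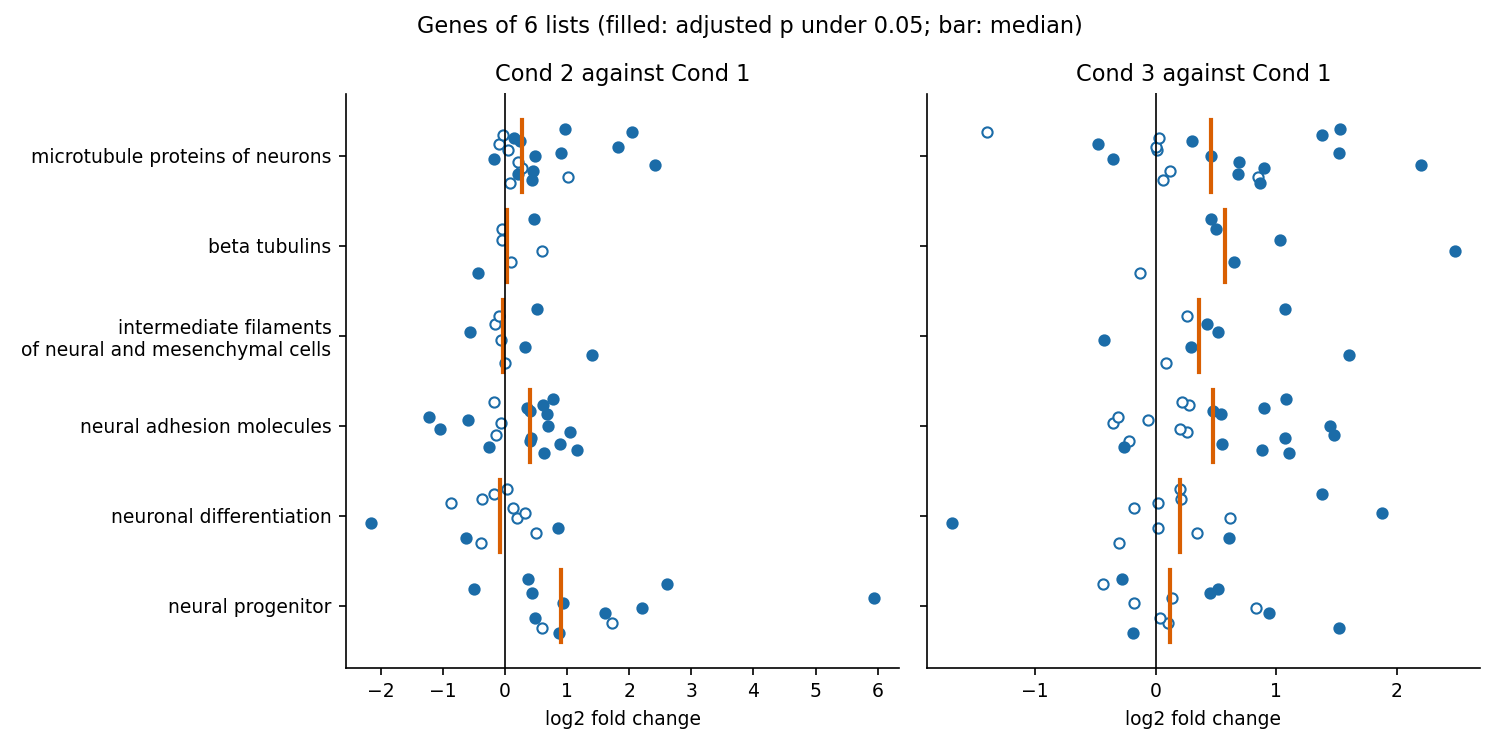
Each point is the log2 fold change of 1 gene of a list (rows) in Cond 2 and Cond 3 against Cond 1, filled where the adjusted p was under 0.05, with a bar at the list's median. The medians of the microtubule and adhesion lists lie above 0 in both panels, and the scales of the panels differ.

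Of 12 neuronal differentiation genes tested, 3 rose and 1 fell in Cond 3 (median 0.20), against 19.5% and 18.8% of all tested genes called higher and lower. In Cond 2, 1 rose and 2 fell (median -0.07), against 10.8% and 10.1%. SYP, a synaptic vesicle protein, rose in Cond 3 from 3.92 ± 0.815 to 10.4 ± 1.11 TPM (log2 fold change 1.38, adjusted p = 4.18e-06). ELAVL3, a neuronal RNA-binding protein, rose by 0.61 in Cond 3 (adjusted p = 0.0252) and was lower in Cond 2, at -0.63 (adjusted p = 0.047). INSM1, a zinc finger factor of neuronal precursors, rose by 0.85 in Cond 2 (adjusted p = 0.00251). The summed level of the 20 genes of this list was 65.4 to 72.3 TPM in Cond 1, 72.9 to 81.4 in Cond 2, 75.4 to 86 in Cond 3 and 65.9 to 75.5 in Cond 4, and the proneural factors NEUROG1 and NEUROG2 were listed at 0 in all Cond 3 libraries.

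REST, the repressor that keeps many neuronal genes silent outside neurons, rose in Cond 2, from 48.4 ± 1.75 to 63.6 ± 4.04 TPM (log2 fold change 0.31, adjusted p = 0.0013). In Cond 3 it was at 52.7 ± 4.09 TPM (log2 fold change 0.09, adjusted p = 0.284). Of 11 genes of the REST repressor complex tested, 4 rose and 0 fell in Cond 2 (median 0.10), against 10.8% and 10.1% of all tested genes. In Cond 3, 4 rose and 2 fell (median 0.12), against 19.5% and 18.8%. In Cond 3 these included KDM1A, a histone demethylase (log2 fold change 0.36, adjusted p = 3.67e-06), and RCOR3, a corepressor that was lower (-0.32, adjusted p = 0.00291).

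Markers of other cell types also moved with the conditions, and their part in the changes above was not tested. For each of these lists too, the shares over all tested genes were 10.8% higher and 10.1% lower in Cond 2, and 19.5% and 18.8% in Cond 3. Of 12 neural progenitor genes tested, 9 rose and 1 fell in Cond 2 (median 0.90), with a summed level of 2682 to 2788 TPM against 1655 to 1737 in Cond 1. SOX2 also counts among the primed pluripotency genes. It contributed most to these sums, at 908 ± 30.1 TPM in Cond 1 and 1304 ± 25.1 in Cond 2. SIX3, a factor of the anterior neural plate, was at 209, 155 and 109 TPM in Cond 2 against 0.736, 2.34 and 4.09 in Cond 1. In Cond 3, 4 of these genes rose and 2 fell (median 0.12), with sums of 2113 to 2170 TPM. HES5 of this list was at 0 in all 12 libraries.

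Of 7 mesenchymal genes tested, 3 rose and 1 fell in Cond 3, with sums of 583 to 623 TPM against 419 to 449 in Cond 1, and 0 rose and 3 fell in Cond 2, with sums of 258 to 310. The collagen genes COL1A2 and COL1A1 rose in Cond 3 by 1.20 and 0.80 on the log2 scale (adjusted p = 2.45e-12 and 3.42e-09). POSTN, with a mean under 1 TPM over all libraries, rose there from 0.173 to 2.5 TPM (log2 fold change 3.74, adjusted p = 3.67e-05). THY1 was lower in Cond 3 (-1.56, adjusted p = 3.63e-13). PRRX1 was listed at 0 in all Cond 2 and Cond 3 libraries and at most at 0.0207 TPM in Cond 1. Of 5 neural crest genes tested, 2 rose and 1 fell in Cond 3 and 3 rose and 1 fell in Cond 2, with sums of 70.9 to 75.9 TPM in Cond 1, 84.9 to 102 in Cond 2 and 94.4 to 98.4 in Cond 3. SOX10 of this list was not among the genes tested. It was at 5.14, 5.38 and 5.13 TPM in Cond 1, 11.4, 9.33 and 11.3 in Cond 2 and 9.77, 7.94 and 10.3 in Cond 3. TFAP2A of the crest list rose in Cond 2 from 0.142 to 4.25 TPM (log2 fold change 4.84, adjusted p = 3.86e-08). Of 9 surface ectoderm genes, 1 rose and 2 fell in Cond 3 and 5 rose and 2 fell in Cond 2, with sums of 1421 to 1573 TPM in Cond 1, 1437 to 1529 in Cond 2 and 1107 to 1118 in Cond 3. EPCAM and the keratin genes made up most of these sums. In Cond 2, DLX5 rose from 0.0694 to 13.7 ± 11.2 TPM (log2 fold change 7.27, adjusted p = 6.56e-07) and GATA3 from 0.268 to 7.46 ± 4.2 (4.66, 1.59e-06). Of 3 mesendoderm genes, 2 rose in Cond 3 and 1 in Cond 2, with sums of at most 9.1 TPM in any library, and FOXA2 was listed at 0 throughout. Of the 12 primed pluripotency genes, 5 rose and 4 fell in Cond 3 and 3 rose and 7 fell in Cond 2. In Cond 4 edgeR called 0 of the 122 genes tested in the 12 lists, with 10 at an unadjusted p under 0.05, and DESeq2 and limma on TPM also called 0.

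Across the 12 libraries, the 9 genes did not share a single pattern. Pearson's r of log2 CPM was 0.95 between STMN2 and MAP2 and 0.93 between MAP2 and NRCAM, which were higher in both altered media. It was 0.94 between DCX and NEFM, which were lower in Cond 2 and higher in Cond 3. MAP1B ran against these, with r of -0.9 with NEFM and -0.81 with DCX. Among 15701 genes with a mean of at least 1 TPM, the gene most like NRCAM was LLGL1 (r = 0.997), that most like DCX was ANTXR1 (0.987), and that most like MAP2 was PCDH18 (0.985). STMN2 was followed most closely by TRA2A (0.983), NES by SIPA1 (0.982), NEFM by TNFRSF11A (0.982), NCAM1 by TBC1D16 (0.979) and MAP1B by MEST (0.972). The second in line were SAMD1 for NRCAM (0.986), NSD2 for MAP2 (0.984), TRIM5 for NEFM (0.982), VCAN for DCX (0.980), MBNL3 for STMN2 (0.979), GAREM2 for NCAM1 (0.976), PNPLA6 for NES (0.968) and FNBP1L for MAP1B (0.964). These values describe 4 groups of 3 libraries, in which the points share their condition and depth, and TUBB3 was left out because its mean level was under 1 TPM.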

How the data were processed

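Total RNA of 12 cultures was sequenced from poly(A), directional libraries. Per the processing notes of the submitters, bcl2fastq 2.20.0.422, cutadapt 4.1, fastp 0.20.1, HISAT2 2.1.0 and featureCounts were used with GRCh38. The annotation release, the strand setting and the treatment of reads with several matches are not given in the sources used here. The authors deposited whole-number read counts per gene, not normalized, and TPM values computed from the same counts and gene lengths. Of 58580 data lines, 5 held no whole gene row and were left out. In addition, 2042 genes with TPM values had no row of read counts. These could not be tested with edgeR, whatever their level. Levels are given as the deposited TPM.

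Samples were grouped by the condition and replicate number in the labels. Counts were normalized by TMM, filtered with filterByExpr and tested by edgeR 4.0.16 (quasi-likelihood test, R 4.3.3) in 1 fit of all 12 libraries, with p-values adjusted over all 17747 genes. The methods of the study used limma on TPM, which was run as an alternative (limma 3.58.1 on log2 values with a pseudocount of 1 or 0.1), together with DESeq2 1.42.0, upper-quartile normalization, other filters and thresholds, 6 libraries alone, a replicate block and each library left out. The fits were first tested on simulated data. The share of TUBB3 was compared by an exact permutation test. Totals of 16441148 to 21871503 counts gave TUBB3 3 to 62 reads, so counting error was large for this gene.

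The genes, the lists and the tests were chosen with earlier results of these data known. Named were all 9 genes, up to 4 genes per list with the largest change among those called with a mean of at least 1 TPM, REST, the beta tubulins with a mean of at least 1 TPM, and the 2 genes most correlated with each member. Genes named as listed at 0, STMN3 in Cond 2, REST in Cond 3, TUBB, SOX10, NEFH, POSTN and the overlapping genes were added after their values were seen. Coordinates are from GENCODE 44, and shared sequence was counted in 31-base words of the transcripts, for the 9 genes and the beta tubulins only. Other genes listed at 0 were not checked in this way.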

Additional observations from a re-analysis of the deposited data

How the results depend on the processing

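Of the calls among the 9 genes, DESeq2 gave the same numbers as edgeR, 6 in Cond 2, 9 in Cond 3, 0 in Cond 4 and 9 in Cond 3 against Cond 2. Requiring a fold change above 2 left 1 in Cond 2 and 5 in Cond 3. With limma on log2(TPM + 1) and at least 1 TPM in all libraries, where 6 of the genes could be tested, 5 were called in Cond 3 and 5 in Cond 3 against Cond 2. With no filter on low counts 1 was called in Cond 4. Leaving out 1 library gave 5 to 7 in Cond 2, 8 to 9 in Cond 3, 0 in Cond 4 and 8 to 9 in Cond 3 against Cond 2. The difference in the TUBB3 share between Cond 4 and Cond 1 (percentage points) turned to -0.00476 without Cond 1 replicate 1 and reached 0.0158 without Cond 1 replicate 3 (0.00465 with all libraries). The cause of these shifts was not tested, apart from the stricter limits and the fewer genes testable.

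Signs turned only for changes that were not called. These included NES in Cond 4 (0.0024 in the limma fits, -0.08 to 0.052 with a library left out) and NCAM1 in Cond 2 (-0.0013 with DESeq2, -0.013 with upper-quartile normalization, -0.0041 with no filter, -0.0061 with genes of at least 1 TPM, -0.0026 with 6 libraries alone, -0.071 to 0.041 with a library left out). With a library left out, MAP2 in Cond 4 ran from -0.074 to 0.10, TUBB3 from -0.23 to 0.82, NEFM from -0.011 to 0.083 and NCAM1 from -0.14 to 0.22.

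The replicate block gave 6, 9, 0 and 9 calls, in the order above, and changed no call among the 9 genes. Libraries with the same number deviated together weakly at most (correlation -0.0131 to 0.0379, over 0.1 in 0 of 12 pairs). Of the 12 libraries, 7 were best matched by their own number, so a slight likeness by number remains possible. The numbers were not treated as pairs in the main fit. Over all genes, limma on log2(TPM + 0.1) called 1602 in Cond 2 and 3796 in Cond 3, against 3701 and 6811 with edgeR, and 4056 in Cond 3 against Cond 2, where edgeR called 6777. In Cond 4, where edgeR called 5, DESeq2 called 12, the fit of 6 libraries alone 8, limma 2 to 21 and edgeR with no filter 52.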
